A study of Rattus norvegicus with 6 samples.

Results

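The integrins, laminins, nidogens and immunoglobulin-type adhesion molecules of rat intestinal epithelial cells were followed after knock-down of Suz12. Their members were fixed by gene symbol, by a rule drawn up with earlier results of these data known. It took every probe set with exactly 1 annotated symbol that began with Itga or Itgb, other than Itgb1bp and Itgbl symbols. It also took Lama, Lamb or Lamc with a digit, and a list of named immunoglobulin adhesion and nidogen genes. This gave 83 probe sets for 53 genes, out of 31042 tested probe sets and 14217 genes. The members were 15 integrin alpha genes, 7 integrin beta genes, 10 laminin genes, 2 nidogen genes, 18 immunoglobulin adhesion genes and Itgb3bp. Itgb3bp encodes a centromere protein and no integrin, and entered only through its first letters. A further gene of the rule, Cadm2, had no probe set in the annotation used here.

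RNA from IEC-6 cells, a non-transformed rat line with features of small intestinal crypt cells, was measured on 6 Affymetrix rat arrays, 3 of control and 3 of ShSuz12 cells. Both groups were infected with lentivirus, selected with puromycin as populations and grown in DMEM with 5% fetal bovine serum. Control cells carried a scrambled short hairpin RNA and ShSuz12 cells carried 1 short hairpin RNA against Suz12, with an infection efficiency estimated at 25%. The 3 arrays of a group came from independent experiments, and 1 control and 1 ShSuz12 line are described, so that p-values measure the spread between experiments and not between separately made lines.

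Suz12 is a core subunit of the Polycomb repressive complex PRC2, which trimethylates lysine 27 of histone H3, a mark of silenced genes. Integrins are receptors made of 1 alpha and 1 beta chain that bind the extracellular matrix or other cells, and laminins are trimers of an alpha, a beta and a gamma chain that form the basement membrane under an epithelium. Nidogens link laminin to collagen IV. Immunoglobulin adhesion molecules are mostly cell surface proteins that hold neighbouring cells together or bind integrins of other cells.

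Values are log2 RMA intensities, 1 for each probe set and array, and all differences are log2 fold changes of ShSuz12 over control with their standard error. A gene was described as having risen or fallen at an adjusted p under 0.05 from limma, with Benjamini-Hochberg adjustment across the whole set of tested probe sets, and the 2-fold limit was applied as a further step. The targeted gene was lower on every ShSuz12 array. Suz12 read 8.45, 8.55 and 8.77 in control and 5.82, 5.77 and 5.91 in ShSuz12 cells, a difference of -2.76 (standard error 0.09, adjusted p = 2.78e-07 from limma). Pearson's r over all probe sets was 0.997 to 0.998 within groups and 0.979 to 0.980 between them, and the array medians were 6.15 to 6.17 in control and 6.26 to 6.27 in ShSuz12 arrays.

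The markers of intestinal epithelium were spread over the range of the control arrays. Cdh1, which encodes E-cadherin, Tjp1 and Krt8 were at percentiles 99.3, 98.6 and 90.15, and Ocln and Cldn3 at 70.2 and 55.3. Of the 12, 5 were below percentile 40 in both groups, among them Epcam, Krt18 and Cldn7 at percentiles 5.92, 8.15 and 15.7 in control. The 2 groups also differed in marker genes of other cells. Of 12 fibroblast and smooth muscle markers, 5 rose by 2-fold or more (41.7%, against 3.82% of all genes), among them Lum (2.46) and Col3a1 (2.33). Another 1 rose by less, and the smooth muscle markers Acta2 and Tagln fell by 0.66 and 0.35. The 4 that did not pass were Col1a1 (0.25), Thy1 (0.16), Pdgfra (0.06) and Vim (-0.06). In control cells Vim, Col1a1, Tagln and Col3a1 were already at percentiles 99.9, 99.6, 98.3 and 96.75, and Lum was at 8.99. Of the 12, 2 were below percentile 40 in both groups. In all 50% rose, against 17.1% of all genes, and 16.7% fell, against 23.3%. The summed linear signal of the list was 29580 to 32240 in control and 41690 to 43410 in ShSuz12 arrays. Of 12 epithelial markers 2 were at least 2-fold higher, Cdx2 (1.56) and Krt19 (1.19), and 2 rose by less, Cdh17 (0.38) and Tjp1 (0.17). Cdh1 and Krt8 fell by 0.76 and 0.41, and 6 did not pass. In all 33.3% rose, against 17.1% of all genes, and 16.7% fell, against 23.3%. The summed signal, to which the brightest genes add most, was 11270 to 12090 in control and 9308 to 9637 in ShSuz12 arrays. The mean log2 value of the list went the other way, with 6.586 to 6.615 in control and 6.736 to 6.835 in ShSuz12 arrays. Of 14 leukocyte markers 0 were 2-fold changed, 0 rose, against 17.1% of all genes, and 3 fell by less (21.4%, near the 23.3% of all genes). Of the 14, 12 were below percentile 40, and Ptprc was at percentile 13.6 in control. Their summed signal was 422 to 425.4 in control and 391.6 to 415.2 in ShSuz12 arrays. Of 9 endothelial markers Erg was 2-fold higher (1.34), Kdr and Flt1 rose by 0.78 and 0.65, 0 fell and 6 did not pass. Thus 33.3% rose, against 17.1% of all genes, and Pecam1 was near the low end of the arrays (percentile 6.93). Their summed signals were 251.1 to 256.7 in control and 311.9 to 337.7 in ShSuz12 arrays. Of 10 neural and glial markers 20% rose and 10% fell, against 17.1% and 23.3% of all genes. Their sums were 1062 to 1068 in control and 1075 to 1138 in ShSuz12 arrays. The part of cell identity in the results that follow was not tested, and in RNA from a whole culture, more cells of a kind and more RNA per cell cannot be told apart.

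The adhesion genes that changed by 2-fold or more were higher in ShSuz12 cells, except that with each array's median subtracted Nectin3 (-1.07) and Itgb3bp (-1.03) were also past 2-fold downward. At least 2-fold higher in ShSuz12 cells were 15 of the 83 probe sets (18.1%), against 3.10% of all tested probe sets, and 0 were at least 2-fold lower, against 0.396% of all. On the deposited scale no member fell by a log2 value of 1 or more, so that count was 0 also by the methods' t-test. In each of the 15, the 3 ShSuz12 values lay above the 3 control values, which adds no support, since they were called on these same values. They belong to 11 genes: Emb, Vcam1, Itgb3, Alcam, Cadm3, Nid2, Chl1, Itga6, Cadm1, Lamb3 and Mcam. Counting 1 probe set for each gene, the brightest, 10 of the 53 genes were at least 2-fold higher (18.9%), against 3.82% of all genes, since Cadm3 passed only at its dimmer probe set. None of the 53 was at least 2-fold lower, against 0.422% of all genes. Without the fold limit 23 genes rose, against 17.1% of all genes, 8 fell, against 23.3%, and 22 did not pass. As the members were chosen with earlier results of these data known, these shares describe the members and test nothing.

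By probe set, 31 of the 83 probe sets rose (37.3%, against 14.8% of all) and 11 fell (13.3%, against 19.5% of all), while 41 did not pass the test. Groups did not overlap in 40 probe sets that were higher in ShSuz12 cells (48.2%, against 19.4% of all) and in 15 that were lower (18.1%, against 28.1% of all). The median log2 fold change was 0.12 over the members and -0.05 over all probe sets. Small changes depended on the scaling. With each array's median subtracted, the median over all probe sets moved from -0.05 to -0.15, and the members then divided into 26 higher and 23 lower (53.1% higher) in place of 31 and 11 (73.8%). Over all probe sets the same step moved the share of higher calls from 43.2% to 23.3%. All 15 probe sets that were at least 2-fold higher remained so under this scaling, whereas Itgav, L1cam, Lama3, Lamb1 and Lamb2 no longer passed at an adjusted p under 0.05. Leaving out single arrays took the call from 11 probe sets with changes of 0.70 or less, each in 3 to 5 of the 6 fits: Itga8, Itga11, Itgam, Itgav, Itgb1, L1cam, Lama3, Lamb1, Lamb2 and dimmer probe sets of Nid1 and Nrcam. Another 8 member probe sets with differences of at most 0.08 in size, none of which passed, changed sign under another scaling, among them those of Itgal, Itgb2, Lama2 and the dimmer Lamc1 probe set.

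**Figure D1:**
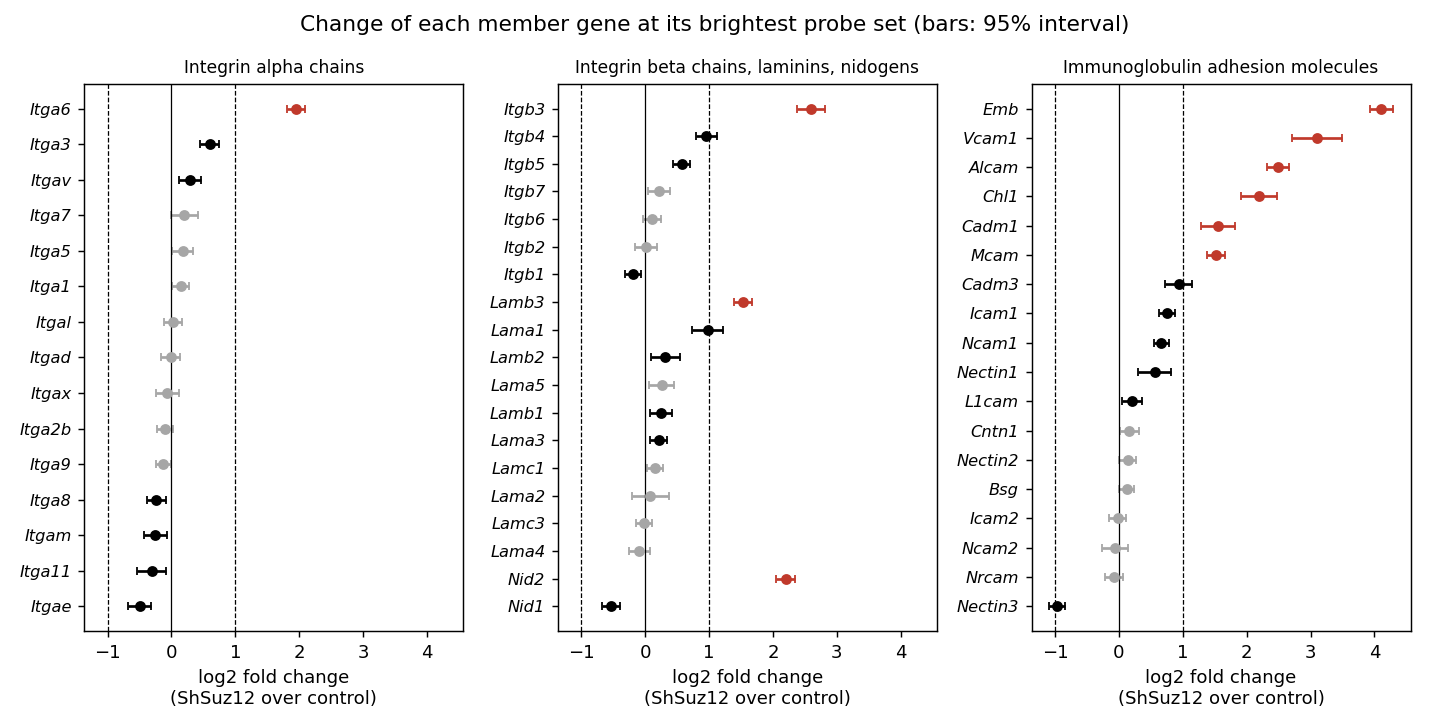
Log2 fold change of ShSuz12 over control (x axis) for each member gene at its brightest probe set, with 95% intervals as bars, by family. Red points are at least 2-fold higher, black points passed at an adjusted p under 0.05 below 2-fold, grey points did not pass, and dashed lines mark 2-fold. Emb (4.11) lies farthest to the right and Nectin3 (-0.97) farthest to the left. Itgb3bp is not drawn.

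The immunoglobulin adhesion molecules held 6 of the 10 genes that were at least 2-fold higher at their brightest probe set. This was 33.3% of the family, against 3.82% of all genes. Of their 18 genes, 5 more rose by less, 1 fell and 6 did not pass, and their median was 0.61. In all 61.1% rose, against 17.1% of all genes, and 5.56% fell, against 23.3%. The promoters of 4 of them are shown to set the base composition beside the change: Emb, Vcam1 and Alcam, which had the 3 largest increases of the family, and Nectin3, the member that fell most. Each is 300 bases of RefSeq sequence in build GRCr8, 250 before and 50 after the start of the gene, written 5′ to 3′ on the strand of the gene, with CG dinucleotides in capitals. CG-rich promoters are known as frequent sites of PRC2 in mammalian cells, although no binding was measured here. Emb is at chr2:50803218-50803517 on the plus strand, Alcam at chr11:61805207-61805506 on the plus strand, Vcam1 at chr2:206742734-206743033 on the minus strand and Nectin3 at chr11:67826694-67826993 on the plus strand.
Emb: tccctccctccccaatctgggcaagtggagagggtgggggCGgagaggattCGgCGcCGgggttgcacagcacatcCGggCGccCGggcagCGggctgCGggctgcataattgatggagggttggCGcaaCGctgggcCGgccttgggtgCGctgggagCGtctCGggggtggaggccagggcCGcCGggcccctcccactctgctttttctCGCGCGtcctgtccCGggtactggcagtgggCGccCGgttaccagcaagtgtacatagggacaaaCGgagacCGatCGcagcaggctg
Alcam: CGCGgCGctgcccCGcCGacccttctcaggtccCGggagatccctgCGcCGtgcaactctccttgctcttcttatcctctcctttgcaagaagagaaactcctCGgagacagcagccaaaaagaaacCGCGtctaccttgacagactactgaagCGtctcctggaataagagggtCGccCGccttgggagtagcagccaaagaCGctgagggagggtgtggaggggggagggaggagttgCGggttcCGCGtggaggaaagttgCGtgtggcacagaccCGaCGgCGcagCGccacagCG
Vcam1: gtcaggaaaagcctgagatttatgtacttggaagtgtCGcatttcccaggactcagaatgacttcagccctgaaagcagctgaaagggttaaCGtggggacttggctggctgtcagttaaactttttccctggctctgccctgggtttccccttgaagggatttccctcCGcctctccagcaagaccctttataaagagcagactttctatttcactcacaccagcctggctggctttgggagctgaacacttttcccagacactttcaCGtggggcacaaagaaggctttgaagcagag
Nectin3: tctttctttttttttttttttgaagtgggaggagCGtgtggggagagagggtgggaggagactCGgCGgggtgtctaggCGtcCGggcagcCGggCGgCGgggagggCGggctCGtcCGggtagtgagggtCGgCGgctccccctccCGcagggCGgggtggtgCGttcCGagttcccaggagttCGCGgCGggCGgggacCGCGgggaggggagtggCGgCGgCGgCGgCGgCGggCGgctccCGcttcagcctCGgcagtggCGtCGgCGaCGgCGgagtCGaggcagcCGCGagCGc

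Emb encodes embigin, a glycoprotein that enhances integrin-mediated attachment and is a companion of monocarboxylate transporters. It read 6.32, 6.57 and 6.61 on the control arrays and 10.61, 10.60 and 10.62 on the ShSuz12 arrays. The groups were far apart and the ShSuz12 values nearly identical. Its log2 fold change of 4.11 had a 95% interval of 3.92 to 4.29, and the probe set moved from percentile 53.8 to percentile 95.1 of the arrays (adjusted p = 2.26e-08 from limma). Its relative basigin (Bsg), which accompanies other monocarboxylate transporters, was at percentile 99.5 in control cells and had a difference of 0.12 that did not pass (95% interval from 0.0032 to 0.24, adjusted p = 0.106 from limma).

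Vcam1, the endothelial and stromal ligand of alpha4 integrins, read 3.74, 3.68 and 4.39 in control cells and 7.04, 6.96 and 7.10 in ShSuz12 cells. Control values were near the low end of the arrays, at percentile 14.4, and the third was higher than the others, yet none came near the ShSuz12 values at percentile 59.3. The difference was 3.10 (standard error 0.17, adjusted p = 5.69e-06 from limma). Icam1, the related ligand of leukocyte integrins, was already high in control cells (9.89, 10.00 and 9.90) and rose by 0.76 to 10.67, 10.72 and 10.68 (adjusted p = 2.68e-05 from limma). Icam2 was low in both groups, with a difference of -0.02 at its brighter probe set (adjusted p = 0.848 from limma).

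Alcam, which binds itself and CD6 on other cells, was bright already in control cells at 10.12, 10.24 and 10.07 and reached 12.54, 12.61 and 12.74, percentile 99.3, in ShSuz12 cells. This is a rise of 2.49 (standard error 0.07, adjusted p = 1.70e-07 from limma). Mcam, a laminin-binding adhesion molecule of vessels and smooth muscle, read 6.44, 6.56 and 6.53 against 7.98, 8.00 and 8.12, a rise of 1.52 (standard error 0.06). Its dimmer probe set rose by 1.60 (standard error 0.09), so that both moved by about the same amount.

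The Cadm genes encode nectin-like molecules that bind across cell contacts. Cadm1 rose by 1.55 at its brighter probe set, from 6.40, 6.11 and 6.25 to 7.94, 7.57 and 7.90, and by 1.28 at the other (standard errors 0.11 and 0.11). Cadm3, best known from neurons, rose by 0.93 at its brighter probe set, from 6.16, 6.12 and 6.02 to 6.89, 6.97 and 7.23, and by 2.30 at its dimmer one, from 4.18, 3.87 and 4.41 to 6.50, 6.54 and 6.32. Its probe sets thus passed together but differed in size.

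Among the L1 and NCAM families, best known for neurite growth, Chl1 rose by 2.20 (standard error 0.12, adjusted p = 5.35e-06 from limma). Its values were 4.39, 4.60 and 4.14 in control cells, at percentile 23.7, and 6.49, 6.50 and 6.73 in ShSuz12 cells. Ncam1 rose at all 3 of its probe sets, by 0.67, 0.80 and 0.51. The other neural members stayed low in both groups. L1cam had a difference of 0.21 (adjusted p = 0.0493 from limma) at percentiles 25.5 and 28.7, and Ncam2, Cntn1 and the brightest Nrcam probe set had differences of -0.06, 0.16 and -0.08 that did not pass. A dimmer Nrcam probe set fell by 0.24 (adjusted p = 0.0286 from limma).

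Nectins hold cadherin junctions together with afadin, and the 3 members differed in direction. Nectin3 read 9.38, 9.46 and 9.43 in control and 8.42, 8.43 and 8.50 in ShSuz12 cells at its brightest probe set, a fall of 0.97 (standard error 0.05, adjusted p = 5.61e-06 from limma), just under 2-fold. With the median of each array subtracted it was over 2-fold. Its dimmer probe sets had differences of -0.19 and 0.05 that did not pass, the dimmest at percentile 12.7. Nectin1 rose by 0.56, from 7.12, 7.43 and 7.01 to 7.66, 7.72 and 7.85, and Nectin2 had differences of 0.14, -0.01 and 0.04 at its 3 probe sets, none of which passed.

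**Figure D2:**
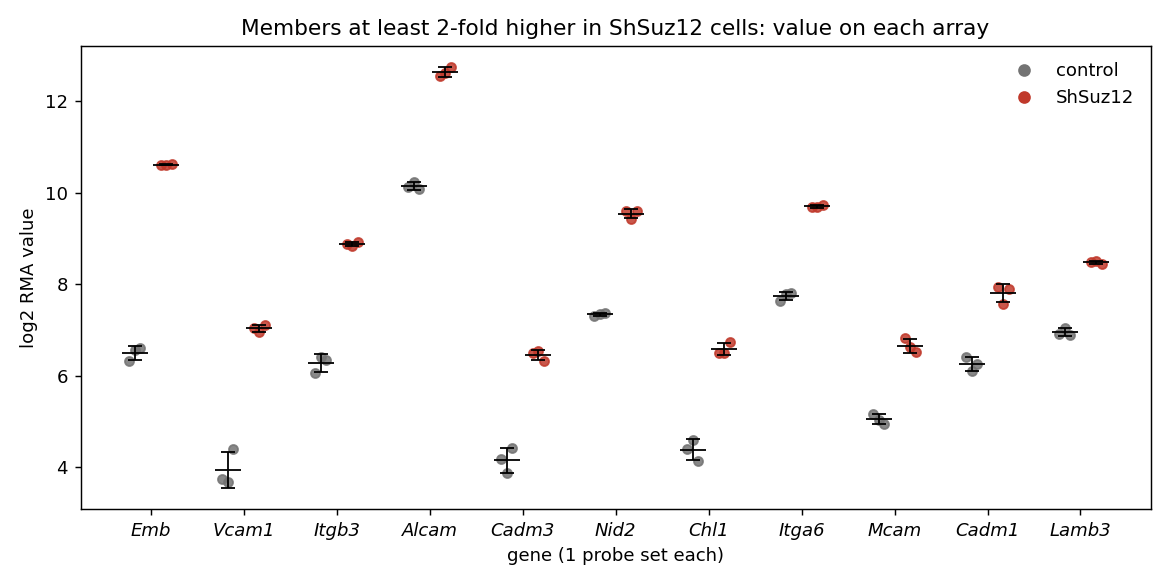
Log2 RMA value on each array (y axis) for the 11 genes with a probe set that rose at least 2-fold, grey for control and red for ShSuz12. Points are arrays, and bars are mean and SD of 3. Each gene is shown by 1 probe set, for Cadm3 and Mcam the dimmer. Groups do not overlap in any of them, but they were called on these same values. All control values of Vcam1, Cadm3 and Chl1 are below 5.

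Promoters were listed for 36 of the 53 genes. The members' windows held 3 to 45 CG dinucleotides with a median of 17.5, against a median of 7 over all 33469 promoters and of 19 over the 11701 promoters of genes on the array. Those of Emb and Alcam held 26 and 24, those of Chl1, Lamb3 and Vcam1 held 11, 6 and 4, and that of Nectin3 held 41. Of the 10 genes at least 2-fold higher at their brightest probe set, only 5 had a listed promoter. These had a median of 11 and the other 31 a median of 18, so that the 5 had both CG-rich and CG-poor starts. No promoter was listed for Itgb3, Nid2, Itga6, Cadm1 and Mcam. Cadm3, with 20, passed 2-fold only at its dimmer probe set and is among the 31. Vcam1 is a textbook target of NF-kappaB, and its window held the letters gggatttcc, from 93 to 85 bases before the start. Searched as GGGNNTTCC on both strands, this pattern was in 1 of the 36 member windows (2.8%) and in 5.9% of all promoters.

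**Figure D3:**
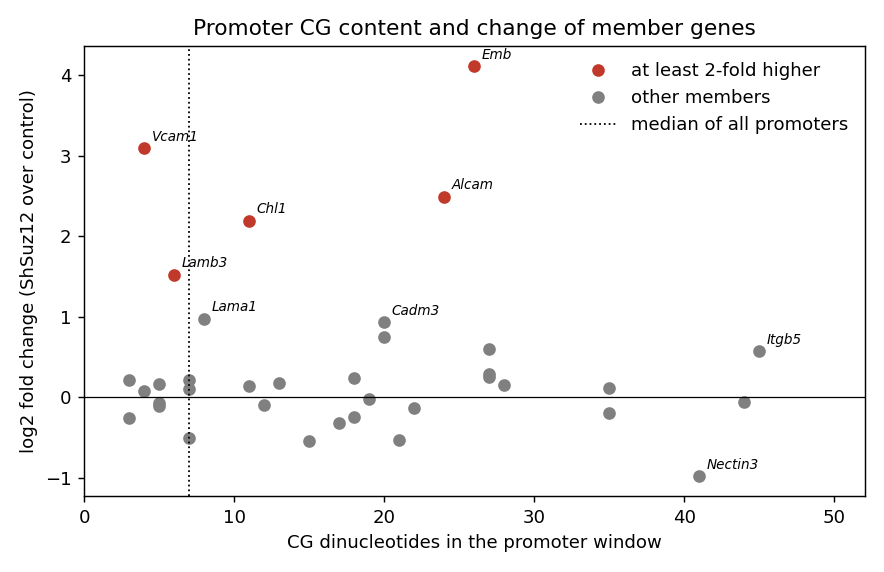
Number of CG dinucleotides in the 300-base promoter window (x axis) and log2 fold change of the gene's brightest probe set (y axis) for the 36 member genes with a listed promoter. Red points are at least 2-fold higher and the dotted line is the median of all promoters, at 7. The median over promoters of genes on the array, 19, is not drawn. The red points spread from 4 (Vcam1) to 26 (Emb), and Nectin3, with 41, lies lowest.

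Of the 15 integrin alpha genes, 1 was at least 2-fold higher (6.67%, against 3.82% of all genes). Another 2 rose by less, 4 fell and 8 did not pass, with a median of -0.01 over the 15. Their shares of 20% that rose and 26.7% that fell were near the 17.1% and 23.3% of all genes. Itga6 encodes the alpha6 chain, a laminin receptor chain of basal epithelial cells. At its brightest probe set it read 7.64, 7.79 and 7.80 in control and 9.68, 9.68 and 9.72 in ShSuz12 cells, a rise of 1.95 (standard error 0.06, adjusted p = 2.42e-07 from limma). A pair of dimmer probe sets rose by 1.66 and 1.66, and the dimmest, at percentile 24.5 in control cells, had a difference of -0.05 (adjusted p = 0.670 from limma). The dimmest read 4.36, 4.43 and 4.46 against 4.54, 4.31 and 4.25, so that its groups overlapped.

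Itga3, the alpha3 chain of another laminin receptor, rose by 0.60, from 9.20, 8.99 and 9.06 to 9.68, 9.72 and 9.64 (adjusted p = 2.76e-04 from limma). Itgae, the chain that binds E-cadherin as known from intraepithelial lymphocytes, fell by 0.50, from 7.82, 8.06 and 7.94 to 7.52, 7.33 and 7.46 (adjusted p = 0.00176 from limma). Itgav, the alpha chain shared by several RGD-binding integrins, differed by probe set. Its brightest probe set rose by 0.29 (adjusted p = 0.0175 from limma), from 9.85, 9.63 and 9.65 to 10.05, 9.93 and 10.00. The others had differences of -0.11 and -0.20 that did not pass.

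Small falls of Itga8, Itga11 and Itgam (-0.24, -0.31 and -0.25) lay at percentiles 32.4, 11.9 and 36.2 of the control arrays, in the range of genes with little signal. The alpha5 chain of the fibronectin receptor (Itga5) and the collagen-binding alpha1 chain (Itga1) had differences of 0.17 and 0.14 that did not pass. The leukocyte chains Itgal, Itgax and Itgad had differences from -0.06 to 0.03 and were at or below percentile 38.3. In all, 29 member probe sets were below percentile 40 in both groups, and 5 of these passed the test. The share that passed among all probe sets in that range was not counted, so nothing is read from the 5.

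Of the 7 integrin beta genes, 1 was at least 2-fold higher, 2 rose by less, 1 fell and 3 did not pass. Over all genes, 3.82% were at least 2-fold higher, 17.1% rose and 23.3% fell. Itgb3, the beta3 chain that pairs with alphav in a receptor for vitronectin and osteopontin, read 6.05, 6.41 and 6.35 in control and 8.88, 8.83 and 8.91 in ShSuz12 cells. It rose by 2.60 (standard error 0.09, adjusted p = 5.30e-07 from limma), from percentile 51.2 to 82.3. Itgb4, the partner of alpha6 in hemidesmosomes, read 7.45, 7.43 and 7.21 against 8.31, 8.31 and 8.34 and rose by 0.96, just under 2-fold. Itgb5, another partner of alphav, rose by 0.57 and 0.49 at its brighter probe sets, and its dimmest had 0.31 (adjusted p = 0.123 from limma).

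Itgb1, the most widely shared beta chain, read 12.33, 12.30 and 12.29 in control and 12.17, 12.06 and 12.13 in ShSuz12 cells. Its brightest probe set fell by 0.19 (adjusted p = 0.0268 from limma), and the other had a difference of -0.17 (adjusted p = 0.0510 from limma). Itgb6 and Itgb7, beta chains of epithelium and of lymphocytes, had differences of 0.11 and 0.22 that did not pass, and Itgb2 of leukocytes had 0.01. Itgb3bp, the centromere protein, fell by 0.54 and by 0.93 at its probe sets.

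**Figure D4:**
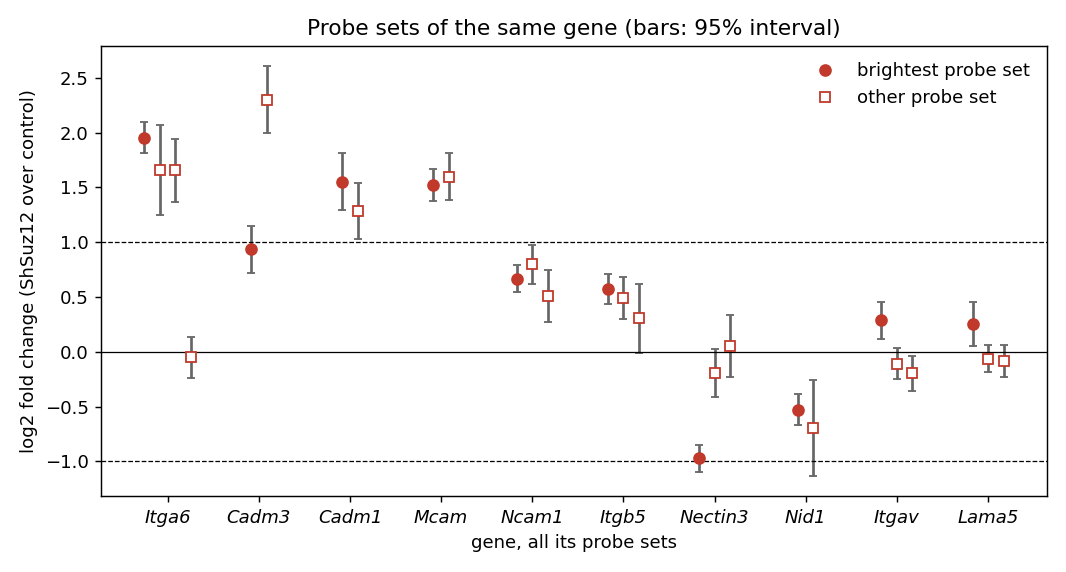
Log2 fold change (y axis) of every probe set of 10 member genes, with 95% intervals as bars. Filled circles are the brightest probe set of a gene, open squares the others, and dashed lines mark 2-fold. Cadm1, Mcam and Ncam1 probe sets lie together, whereas those of Itga6, Cadm3 and Nectin3 differ.

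Of the 53 genes, 20 had several probe sets. In 2 of these, Cadm1 and Mcam, all probe sets were at least 2-fold higher, and in 2 more, Itga6 and Cadm3, only some were. Probe sets closest to the 2-fold limit were Cadm1 (1.28), Mcam (1.52) and Lamb3 (1.53) inside it and Lama1 (0.98), Nectin3 (-0.97), Itgb4 (0.96) and Cadm3 (0.93) outside it. Leaving out single arrays carried 3 of the latter to 2-fold: Lama1 to 1.02 without control replicate 1, to 1.04 without ShSuz12 replicate 2 and to 1.03 without ShSuz12 replicate 3, Itgb4 to 1.00 without control replicate 1, and Cadm3 to 1.00 without ShSuz12 replicate 1.

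Among the 10 laminin genes, 1 was at least 2-fold higher (10%, against 3.82% of all genes), 4 rose by less, 0 fell and 5 did not pass, with a median of 0.23. Thus 50% rose, against 17.1% of all genes, while 23.3% of all genes fell. Lamb3, the beta3 chain found in the laminin of hemidesmosomes, read 6.91, 7.05 and 6.90 in control and 8.49, 8.50 and 8.44 in ShSuz12 cells. Its rise of 1.53 had a standard error of 0.06 (adjusted p = 8.40e-07 from limma). Lama3, the alpha chain of the same trimer, rose by 0.21 (adjusted p = 0.0198 from limma). Lama1, the alpha chain of early basement membranes, read 5.19, 5.00 and 5.13 against 6.33, 5.95 and 5.97 and rose by 0.98 (adjusted p = 2.47e-04 from limma).

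The laminin chains that were bright in both groups changed by 0.32 or less. Lamb1 and Lamb2 rose by 0.25 and 0.32 from percentiles 97.1 and 94.3, and Lamc1, the gamma chain of most laminins, had differences of 0.15 and 0.08 that did not pass. Lama5, the alpha chain of mature epithelial basement membranes, had a difference of 0.26 at the brightest of its probe sets (adjusted p = 0.0527 from limma) and -0.06 and -0.08 at the others. Lama2, Lama4 and Lamc3 had differences from -0.09 to 0.08 at their brightest probe sets.

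The nidogens moved in opposite directions. Nid2 read 7.30, 7.36 and 7.36 in control and 9.60, 9.43 and 9.59 in ShSuz12 cells, a rise of 2.20 (standard error 0.06, adjusted p = 1.60e-07 from limma). Nid1 read 12.12, 12.20 and 12.05 in control and 11.56, 11.56 and 11.66 in ShSuz12 cells, a fall of 0.53 (standard error 0.06, adjusted p = 3.37e-04 from limma). A dimmer Nid1 probe set fell by 0.70 with a standard error of 0.19 (adjusted p = 0.0224 from limma).

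Partners of a known complex were compared within each array, as the difference between the log2 values of a gene and its partner. This difference rose between the groups by 2.31 for Itgb3 over Itgav (standard error 0.18), by 2.14 for Itga6 over Itgb1 (0.07) and by 0.99 for Itga6 over Itgb4 (0.11). For laminins it rose by 1.31 for Lamb3 over Lama3 (0.08) and by 0.83 for Lama1 over Lamc1 (0.15), and for the nidogens by 2.73 for Nid2 over Nid1 (0.07). In all 6 pairs the 3 ShSuz12 values lay above the 3 control values, which is a description with no test, since the pairs were chosen with the changes of their genes known. Each gene stands for its brightest probe set, and the dimmer sets of Itgav (-0.11 and -0.20) and the dimmest of Itga6 (-0.05) had other values.

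**Figure D5:**
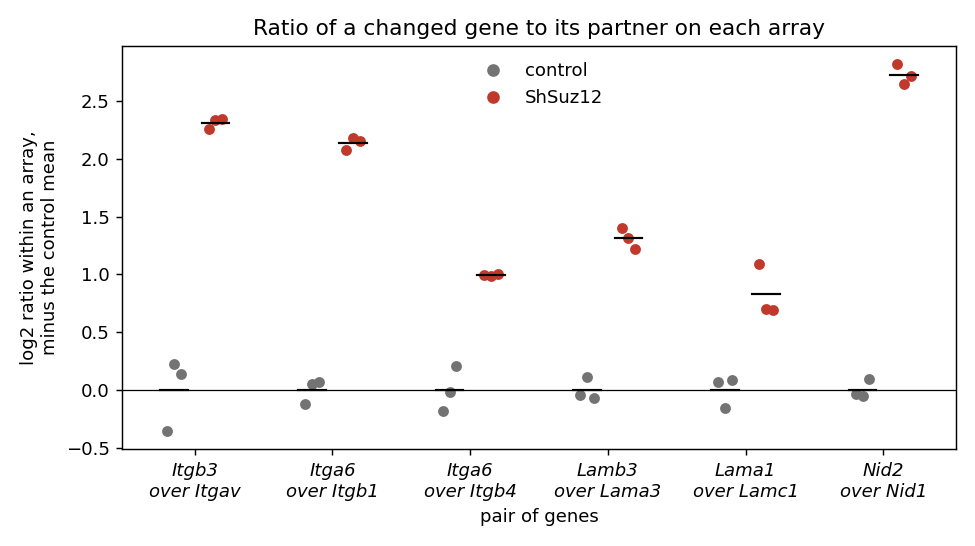
Difference between the log2 values of a gene and its partner on each array, minus the control mean of the pair (y axis), for 6 pairs, with grey points for control arrays, red points for ShSuz12 arrays and lines for group means. All ShSuz12 points lie above all control points of their pair, from 0.83 on average for Lama1 over Lamc1 to 2.73 for Nid2 over Nid1.

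RNA of other genes of the integrin adhesion pathway was read from a list of 58 focal adhesion genes, of which 54 were measured. The list holds cytoskeletal linkers, kinases and membrane partners of integrins. At least 2-fold changed were 2 of the 54, both higher, against 4.24% of all genes changed either way, and both came from dim probe sets: Apbb1ip (1.81), an adaptor of the small GTPase Rap1, and Lims2 (1.11), a partner of integrin-linked kinase. Without the fold limit 12 rose (22.2%, against 17.1% of all genes), 12 fell (22.2%, against 23.3%) and 30 did not pass, with a median of -0.08 against -0.05 over all genes, so that these shares were near those of all genes. Kank1, Tgfb1i1 and Rap1a fell most, by 0.50, 0.47 and 0.43.

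The list of basement membrane genes and integrin ligands held 50 genes, of which 43 were measured. Of these, 6 were at least 2-fold higher (14%, against 3.82% of all genes) and 0 were at least 2-fold lower, against 0.422%. In all 18 rose (41.9%, against 17.1%), 8 fell (18.6%, against 23.3%) and 17 did not pass, with a median of 0.13. The 5 largest rises were of secreted ligands and matrix proteins: Spp1, which encodes osteopontin, rose by 4.98, Tnc (tenascin C) by 3.57, Postn (periostin) by 3.48, Tgfbi by 2.82 and Fbln1 (fibulin 1) by 2.21. Fibronectin (Fn1), the ligand of the alpha5 and beta1 chains, rose by 0.25 from percentile 99.7. Ntn1 (netrin 1), Ccn1 and Col4a6 fell most, by 0.89, 0.88 and 0.49.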

How the data were processed

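Total RNA of 3 control and 3 ShSuz12 samples was hybridized to Affymetrix rat RAE230 2.0 arrays. The deposited log2 values are the authors' RMA output from FlexArray (background correction, normalization between arrays, 1 value for each probe set and array). No present calls or scanner files were used here. After removal of 57 control probe sets, 31042 were tested two-sided with limma 3.58.1 (lmFit, eBayes; R 4.3.3), with Benjamini-Hochberg adjustment over all. A call needed an adjusted p under 0.05 and 2-fold. The script was tested on simulated data. The number of arrays limits the precision.

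Symbols came from the platform annotation (20826 probe sets with 1 symbol, 436 with several, 9780 not listed and unnamed here), and the RefSeq GRCr8 gene table changed 0 of them. A gene was counted by its brightest probe set. Members and gene lists were chosen with earlier results of these data known. Any member could be named. Of the focal adhesion and basement membrane lists, up to 5 called genes with the largest change and the 3 that fell most were named, and Fn1 was added after its value was seen. From the marker lists only defining markers were named. RefSeq promoters (build GRCr8) matched 36 of the 53 genes. Replicates with the same number in both groups did not deviate together (correlations of 0.02, -0.04 and -0.06), so they were not treated as pairs.

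Alternatives were the methods' t-test (Student, with and without adjustment), robust eBayes with an intensity trend, a replicate block, median subtraction, a second quantile normalization, filters at array percentile 40 and 60 (in 2 or more arrays of either group), no or a 1.5-fold limit, averaging a gene's probe sets, and dropping each array in turn. Figures were drawn with matplotlib 3.10.9.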

Additional observations from a re-analysis of the deposited data

How the results depend on the processing

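The 15 probe sets at least 2-fold higher remained called under the methods' t-test (unadjusted or adjusted), the intensity trend with robust eBayes, both other scalings and every fit without 1 array. The filter at percentile 40 left all 15, but Vcam1, Chl1 and the dimmer probe sets of Cadm3 and Mcam, below percentile 40 in control cells, passed it only through the ShSuz12 arrays where they are high. The filter at percentile 60 removed these 4 and left 11. Leaving out 1 array gave 15 to 17 probe sets and 10 to 12 genes at least 2-fold higher, 0 to 0 probe sets at least 2-fold lower, 2 to 2 focal adhesion and 5 to 6 basement membrane and ligand genes changed, and -2.83 to -2.67 for Suz12. With the replicate block, counts were 15 probe sets and 10 genes higher, and the block changed no 2-fold call, while Itgb1, Lamb1 and a dim Nrcam probe set lost an adjusted p under 0.05 and a dim Itgb5 probe set gained it. With no fold limit the counts were 31 probe sets and 23 genes higher, 11 probe sets lower, 24 focal adhesion genes and 26 basement membrane and ligand genes. With a 1.5-fold limit, 16 genes were higher, 3 probe sets lower, and 5 focal adhesion and 11 basement membrane and ligand genes were changed. The shares of all genes and probe sets at this limit were not counted, so these counts have no background beside them. Median subtraction made 2 probe sets at least 2-fold lower (Nectin3 and Itgb3bp). Over all 31042 probe sets it moved the number at least 2-fold lower from 123 to 194. Of the 2 focal adhesion genes, 0 were left by the filter at percentile 60 and 1 when a gene's probe sets were averaged. No value that had passed the test changed sign, whereas 8 member probe sets that had not passed changed sign under another scaling, with differences of at most 0.08 in size.

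Of the 42 member probe sets that passed at an adjusted p under 0.05, 23 passed in all 14 alternatives and 6 passed in all but the filter at percentile 60, which removed them. The other 13 did not pass in at least 1 alternative. By the methods' t-test with Benjamini-Hochberg adjustment 11 of the 42 did not pass, and 3 of these did not pass without adjustment either. Of the 41 member probe sets that had not passed, 22 passed in at least 1 alternative. In the fits without 1 array, the 11 probe sets listed above that lost an adjusted p under 0.05 reached values from 0.0508 (Lama3) to 0.147 (L1cam). No present calls were used.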

Other observations

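Adhesion genes outside the symbols of the rule were looked at after their names had been listed, with no test of their own. Of 29 measured, 0 were at least 2-fold changed, 4 rose (13.8%, against 17.1% of all genes), 5 fell (17.2%, against 23.3%) and 20 did not pass at an adjusted p under 0.05 from limma, so that neither share was above that of all genes. Jam3, a junctional adhesion molecule, rose by 0.96 and Bcam, a receptor of the laminin alpha5 chain, by 0.91, while Negr1, a neuronal adhesion molecule, rose by 0.76 and Nptn, a relative of embigin and basigin, by 0.21. Cd44, the hyaluronan receptor that also binds osteopontin, fell by 0.72 and Itgbl1 by 0.53, with Dscam, Itgb1bp1 and Pvr, a nectin-like receptor of Nectin3, falling by 0.26, 0.24 and 0.24.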
